A study of Mus musculus with 16 samples.

Results

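Long-chain fatty acids cannot cross the inner mitochondrial membrane as acyl-CoA and are carried across as esters of carnitine. Carnitine enters the muscle fibre through a transporter of the plasma membrane, carnitine palmitoyltransferase 1 forms acylcarnitine at the outer mitochondrial membrane, a translocase exchanges it for free carnitine, and carnitine palmitoyltransferase 2 restores acyl-CoA in the matrix. Malonyl-CoA, made by acetyl-CoA carboxylase and removed by malonyl-CoA decarboxylase, inhibits carnitine palmitoyltransferase 1 and so limits entry in muscle.

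The 8 genes of this shuttle and its malonyl-CoA brake were taken by symbol from a table of quadriceps expression values with 23970 gene symbols, and all 8 were found once and passed the filter on low values. They are Slc22a5 (the plasma membrane carnitine transporter OCTN2), Cpt1b and Cpt1a (the muscle and liver forms of carnitine palmitoyltransferase 1), Slc25a20 (the carnitine-acylcarnitine translocase), Cpt2, Crat (carnitine acetyltransferase, which buffers acetyl-CoA as acetylcarnitine), Acacb (acetyl-CoA carboxylase 2, at the outer mitochondrial membrane) and Mlycd (malonyl-CoA decarboxylase). The libraries came from male wild type C57BL/6NTac mice aged 16 weeks, with 4 mice in each of 4 groups. Control diet (CON) gave 10% and high fat diet (HFD) gave 60% of kcal from fat, both for 10 weeks. CON-pre and HFD-pre muscles were taken under basal conditions, and CON-post and HFD-post muscles 3 h after a single maximal treadmill run. The authors reported that performance in this run was impaired with HFD, with a different running time but the same work. Different mice made up the pre and post groups, so that exercise is a comparison between mice. All 4 groups shared the treadmill acclimatization and the fasting period. Between the run and sampling the post mice had water but no food.

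Expression was measured by sequencing of stranded mRNA libraries and is given in FPKM, the fragments assigned to a gene divided by transcript length and by the size of the library, a level per length that can be compared between genes. Library totals ranged from 283575 to 329282 FPKM, and the depth relative to CON-pre 1, estimated from ratios of low FPKM values, ranged from 0.705 to 1.12. All 10 skeletal muscle markers were present, with summed levels of 48336 to 62952 FPKM. Whole muscle was sampled, so that fewer cells of a type and less RNA per cell cannot be told apart. Summed adipocyte markers ranged from 977 to 1265 FPKM in CON-pre, 1061 to 1186 in HFD-pre, 1069 to 1373 in CON-post and 1057 to 1608 in HFD-post.

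The regions upstream of 3 members are shown, chosen after the values were seen, because Slc25a20 and Cpt2 had the highest average diet fold changes and Mlycd rose with both diet and exercise. Of the 8 members, 6 had a promoter window in the RefSeq table (GRCm38.p6), which runs from 250 bases before the start site to a total of 300 bases. The 8-letter ETS motif CCGGAAGT was searched on both strands and occurred in the windows of Slc25a20, beginning 79 bases before the start, and Cpt2, beginning 13 bases before it, and in none of the other 4. It was held by 3.89% of all 32851 windows. The lines give the 120 bases upstream of Slc25a20 (chr9:108662016-108662135, plus strand) and of Cpt2 (chr4:107923590-107923709, minus strand), followed by a 120-base stretch upstream of Mlycd (chr8:119394732-119394851, plus strand). Capitals mark the ETS motif in the first pair and, in Mlycd, a CCAAT box read on the minus strand directly followed by another on the plus strand.
Slc25a20: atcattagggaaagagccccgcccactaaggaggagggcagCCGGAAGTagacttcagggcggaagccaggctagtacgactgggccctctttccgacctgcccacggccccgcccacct
Cpt2: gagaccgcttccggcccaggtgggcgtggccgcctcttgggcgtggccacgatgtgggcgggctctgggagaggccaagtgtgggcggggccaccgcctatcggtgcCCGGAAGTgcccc
Mlycd: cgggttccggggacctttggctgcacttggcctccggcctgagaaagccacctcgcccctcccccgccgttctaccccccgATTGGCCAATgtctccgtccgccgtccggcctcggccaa
The CCAAT box was found in Mlycd 3 times, beginning 81, 76 and 46 bases before the start, and once each in Cpt1a and Acacb, against 37.4% of all windows. The Mlycd box that begins at 46 bases runs past the end of the printed stretch. The GC box GGGCGG, held by 35.7% of windows, was found 5 times in Slc22a5 and 3 times each in Cpt1a, Slc25a20 and Cpt2, and not in Mlycd or Acacb. A nuclear receptor half-site, AGGTCA, held by 16.3% of windows, was found in Cpt1a and Acacb. A pair of these half-sites in direct repeat, spaced by 1 base, which contains the half-site, was found in 0 of 6 members and in 0.0396% of all windows. TATAAA was found in Acacb, 34 bases before the start, and in 13.6% of all windows. These matches describe letters and not bound sites.

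Crat and Cpt1b were the most abundant members, with mean levels over the 16 libraries of 97.8 and 91.2 FPKM. Acacb followed at 41.2, Slc25a20 at 36.7, Mlycd at 28.3 and Cpt2 at 27.5 FPKM, whereas Cpt1a and Slc22a5 had 3.82 and 3.42 FPKM. Crat exceeded Cpt1b in 15 of 16 libraries, the exception being HFD-post 1. Acacb and Slc25a20 exchanged places with diet, since Acacb was the higher in all 4 CON-pre and all 4 CON-post libraries but in 0 of 4 HFD-pre and 1 of 4 HFD-post libraries. Mlycd was below Cpt2 in all 4 CON-pre libraries and above it in all 4 CON-post libraries. Within muscle, Cpt1b made up 94.4 to 97.0% of the summed level of Cpt1a and Cpt1b in every library. The 8 members summed to 281 ± 13.8 FPKM (SD, n = 4) in CON-pre, 349 ± 8.46 in HFD-pre, 313 ± 9.68 in CON-post and 378 ± 24.0 in HFD-post.

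**Figure D1:**
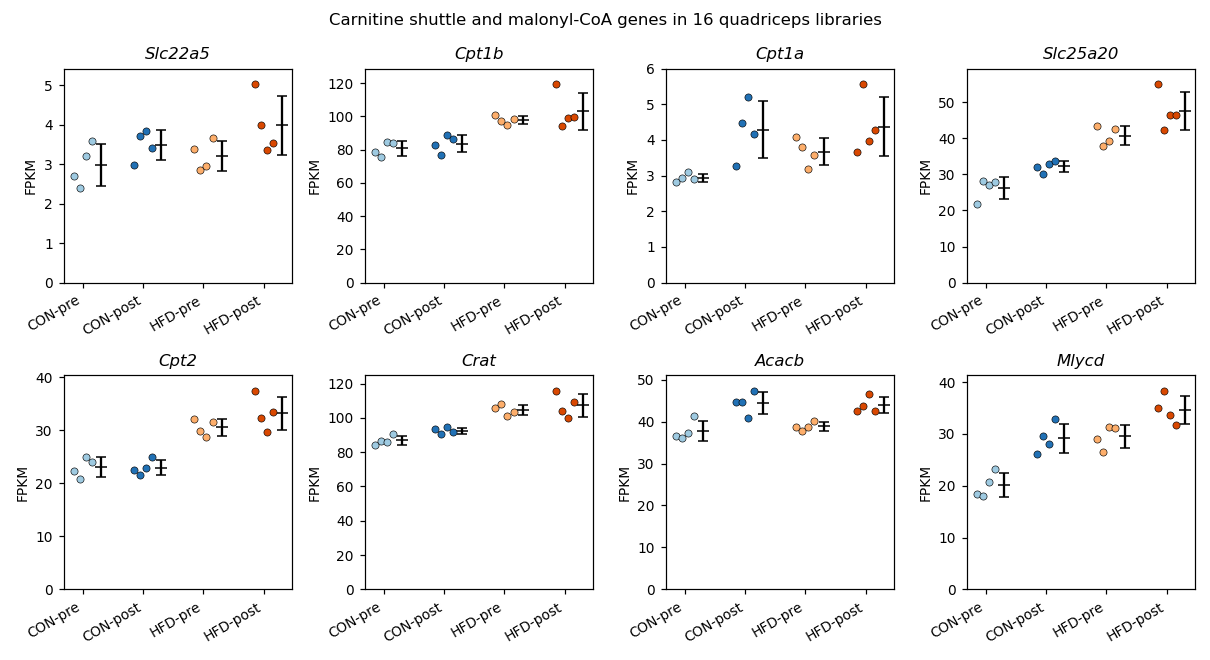
Levels (FPKM, linear axes from 0) of the 8 members in the 16 libraries, with 1 point per mouse and, beside each group, the mean and SD of 4 mice. Cpt1b, Slc25a20, Cpt2 and Crat separate by diet at both times, whereas Acacb is near 38 FPKM in both pre groups and near 44 FPKM in both post groups.

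High fat feeding was associated with higher levels of Cpt1b, Slc25a20, Cpt2, Crat and Mlycd. Averaged over pre and post, 5 of 8 members were called higher with HFD and 0 lower, also at an unadjusted p under 0.05 (limma, Benjamini-Hochberg adjusted p under 0.05 over 11256 genes), where 0.489% of all genes tested were called higher. For 4 of these, Cpt1b, Slc25a20, Cpt2 and Crat, all 8 HFD libraries lay above all 8 CON libraries, as did 0.249% of all genes. The median log2 fold change of the 8 members was 0.26, against -0.02 over all genes tested. The averaged comparison and the separate comparisons use the same libraries and are therefore not independent of each other.

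Slc25a20, the translocase, had the largest diet fold change of the 8. Its levels were 21.9, 28.2, 27.0 and 27.8 FPKM in CON-pre and 43.4, 37.8, 39.3 and 42.5 FPKM in HFD-pre. After exercise they were 32.2, 30.1, 32.9 and 33.7 FPKM in CON-post and 55.0, 42.4, 46.6 and 46.4 FPKM in HFD-post. The lowest HFD library thus exceeded the highest CON library, and CON-pre 1 and HFD-post 1 were the lowest and the highest of all 16. The mean level with HFD was 1.55 times that with CON before exercise and 1.48 times after it. The log2 fold changes were 0.63 ± 0.09 (SE; adjusted p = 0.00440) and 0.55 ± 0.09 (adjusted p = 0.0216), and 0.59 ± 0.06 on average (adjusted p = 1.75e-04). The call before exercise was kept in all 29 alternative fits and that after exercise in 22 of 29.

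Cpt2, the enzyme of the matrix side, followed the same grouping. It stood at 22.4, 20.8, 25.0 and 24.1 FPKM in CON-pre and at 32.1, 29.9, 28.8 and 31.5 FPKM in HFD-pre. The post values were 22.6, 21.5, 22.9 and 25.0 FPKM for CON and 37.4, 32.4, 29.7 and 33.4 FPKM for HFD. No HFD library fell within the CON range, and the CON groups overlapped almost fully before and after exercise. The difference was 1.32-fold before exercise (log2 fold change 0.40 ± 0.08, adjusted p = 0.0392), 1.44-fold after it (0.52 ± 0.08, adjusted p = 0.0103) and 0.46 ± 0.06 on the log2 scale on average (adjusted p = 3.88e-04).

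Crat, which forms acetylcarnitine from acetyl-CoA, was the most abundant member. Its levels were 84.4, 86.8, 85.7 and 90.4 FPKM in CON-pre against 106, 108, 101 and 103 FPKM in HFD-pre. In CON-post it had 93.4, 90.9, 94.6 and 91.5 FPKM, and in HFD-post 115.5, 104, 99.7 and 109.5 FPKM. All HFD libraries were again above all CON libraries. Its log2 fold change with HFD was 0.27 ± 0.05 before exercise (adjusted p = 0.0466) and 0.24 ± 0.04 on average (adjusted p = 0.00372), whereas after exercise 0.21 ± 0.05 missed the threshold (adjusted p = 0.230).

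Cpt1b, the muscle form of the malonyl-CoA-sensitive enzyme, was called in the average alone. Its levels were 78.7, 75.5, 84.5 and 84.1 FPKM in CON-pre against 101, 96.9, 94.6 and 98.6 FPKM in HFD-pre. The CON-post libraries had 83.0, 76.9, 88.5 and 86.0 FPKM and the HFD-post libraries 119, 94.2, 98.7 and 99.4 FPKM, with HFD-post 1 standing above the other 3. The ranges of CON and HFD did not overlap. The average log2 fold change was 0.28 ± 0.05 (adjusted p = 0.00965), and the separate values of 0.27 before (adjusted p = 0.173) and 0.29 after exercise (adjusted p = 0.186) missed the threshold. A read-through entry that overlaps Cpt1b, ChkbCpt1b, had at most 0.297 FPKM.

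Before exercise, 4 of 8 members were called higher in the HFD-pre group (Slc25a20, Mlycd, Cpt2 and Crat), against 0.24% of all genes. In that comparison 6 of 8 members had every HFD-pre library above every CON-pre library, against 1.68% of all genes. After exercise, 2 of 8 were called higher in HFD-post than in CON-post (Cpt2 and Slc25a20), against 0.124% of all genes, and 4 of 8 had groups that did not overlap, against 1.88%. The calls of Cpt2 and Crat before exercise were the least stable, and they were kept in 14 and 8 of 29 alternative fits. The count of 2 after exercise fell to 0 without CON-post 2 and with those groups fitted alone.

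Slc22a5, the carnitine transporter, and Cpt1a, the liver form, were not called with diet. Slc22a5 ranged from 2.41 to 3.58 FPKM in CON-pre, 2.84 to 3.66 in HFD-pre, 2.98 to 3.84 in CON-post and 3.37 to 5.03 in HFD-post, and these ranges overlapped. Its average log2 fold change with HFD was 0.13 with a 95% interval of -0.06 to 0.32, and that of Cpt1a was 0.15 with an interval of -0.04 to 0.34. Differences of the size found for Crat lie within both intervals. The Cpt1a average covered unequal values. Before exercise it had 0.27 (limma adjusted p = 0.595), with every HFD-pre library above every CON-pre library, and after exercise 0.03 (adjusted p = 0.997).

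Of the malonyl-CoA pair, Mlycd was called with both diet and exercise and Acacb with exercise alone. Mlycd, which removes malonyl-CoA, was at 18.5, 18.0, 20.7 and 23.2 FPKM in CON-pre and at 29.0, 26.5, 31.3 and 31.2 FPKM in HFD-pre. After exercise it was at 26.0, 29.6, 28.0 and 32.8 FPKM in CON-post and at 35.0, 38.2, 33.6 and 31.6 FPKM in HFD-post. CON-pre was thus below every other group, while HFD-pre and CON-post covered nearly the same range. Acacb, which makes malonyl-CoA, was at 36.7, 36.0, 37.2 and 41.2 FPKM in CON-pre and at 38.8, 37.7, 38.8 and 40.1 FPKM in HFD-pre. It was at 44.6, 44.6, 40.8 and 47.2 FPKM in CON-post and at 42.5, 43.8, 46.6 and 42.6 FPKM in HFD-post. For Acacb the diets overlapped at both times, and 7 of 8 post libraries lay above the highest pre library.

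With HFD, Mlycd rose 1.47-fold before exercise (log2 fold change 0.55 ± 0.09, adjusted p = 0.0138) and by 0.40 ± 0.07 on average (adjusted p = 0.00467). After exercise its difference of 0.25 ± 0.09 was not called (adjusted p = 0.604). Acacb had an average log2 fold change with HFD of 0.01, with a 95% interval of -0.08 to 0.11. The ratio of Acacb to Mlycd was 1.89 ± 0.12 (SD, n = 4) in CON-pre, 1.32 ± 0.08 in HFD-pre, 1.53 ± 0.13 in CON-post and 1.27 ± 0.11 in HFD-post. All CON-pre libraries, at 1.78 to 1.99, were above the other groups, which reached at most 1.71.

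**Figure D2:**
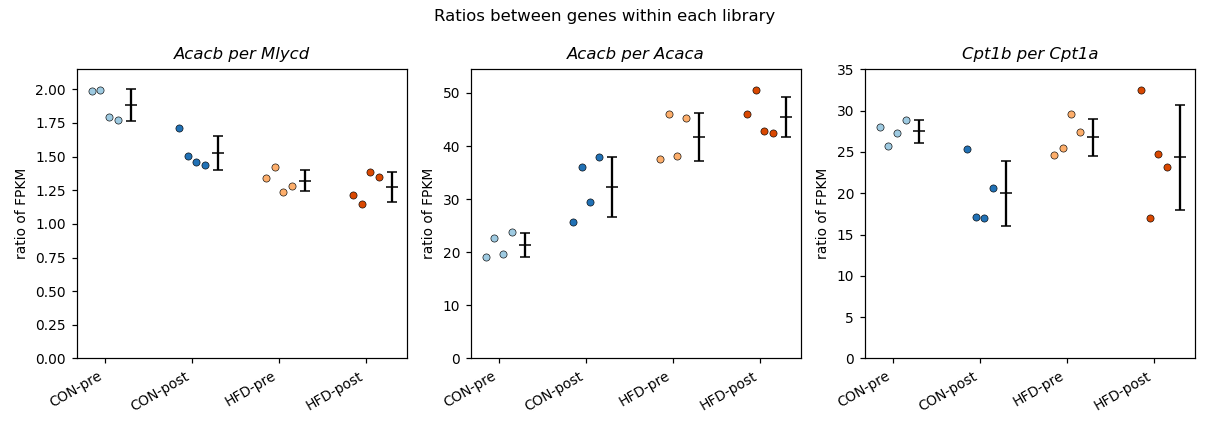
Ratios of FPKM between genes within each library (linear axes from 0), with 1 point per mouse and the mean and SD of 4 mice. Acacb per Mlycd is highest in CON-pre (1.78 to 1.99), Acacb per Acaca is lowest there (19.0 to 23.8), and Cpt1b per Cpt1a spreads most widely in HFD-post (16.9 to 32.5).

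Acute exercise was associated with higher levels of 4 members, of which Mlycd and Slc25a20 were also called with diet. Averaged over both diets, 4 of 8 were called higher post than pre and 0 lower (Mlycd, Acacb, Slc25a20 and Cpt1a), where 2.95% of all genes were called higher. In 0 of 8 did all 8 post libraries exceed all 8 pre libraries, as 0.613% of all genes did. The median log2 fold change of the members was 0.22, against 0.01 over all genes tested. Mlycd had 0.38 ± 0.07 (adjusted p = 0.00355), Cpt1a 0.34 ± 0.09 (adjusted p = 0.0466), Slc25a20 0.26 ± 0.06 (adjusted p = 0.0332) and Acacb 0.20 ± 0.04 (adjusted p = 0.0161). The call of Mlycd was kept in 28 of 28 alternative fits and that of Acacb in 25, but those of Slc25a20 and Cpt1a were kept in 13 and 10.

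Cpt1a, which at its low level contributes little of the total, was at 2.81, 2.94, 3.09 and 2.91 FPKM in CON-pre and at 3.27, 4.48, 5.22 and 4.17 FPKM in CON-post. In HFD-pre it was at 4.08, 3.81, 3.19 and 3.59 FPKM and in HFD-post at 3.67, 5.56, 3.98 and 4.29 FPKM. All CON-post libraries were above all CON-pre libraries, while the HFD groups overlapped. On the control diet the change was 1.46-fold, with a log2 fold change of 0.46 ± 0.13 (adjusted p = 0.109). The ratio of Cpt1b to Cpt1a was 27.5 ± 1.34 (SD, n = 4) in CON-pre and 20.0 ± 3.93 in CON-post, with no overlap between these groups.

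The other 4 members were not called with exercise. Cpt1b, Cpt2 and Crat each had an average log2 fold change of 0.06, with 95% intervals of -0.05 to 0.17, -0.06 to 0.17 and -0.02 to 0.15. Under quantile normalization the small values of Cpt1b and Crat turned to -0.01 and -0.00417. Slc22a5 had 0.24, with an interval of 0.04 to 0.43 (adjusted p = 0.181).

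**Figure D3:**
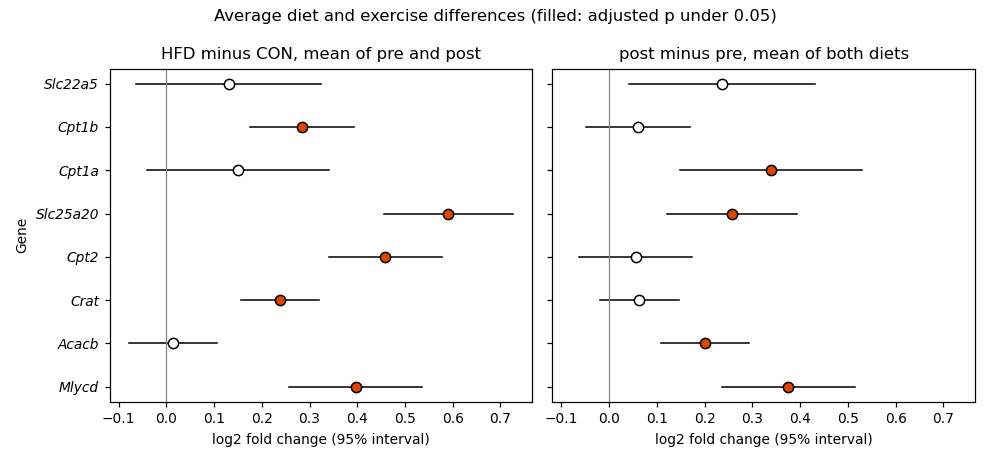
Average log2 fold changes of log2(FPKM + 0.5) for HFD minus CON and for post minus pre, with 95% intervals from the limma fit of 16 libraries and filled points where the adjusted p was under 0.05. Slc25a20 and Mlycd are filled in both panels, Cpt1b, Cpt2 and Crat for diet alone, and Cpt1a and Acacb for exercise alone.

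On the control diet 1 of 8 members was called higher in CON-post than in CON-pre, against 0.968% of all genes. This was Mlycd, which rose 1.45-fold (log2 fold change 0.52 ± 0.09, adjusted p = 0.00709), and its call was kept in 28 of 29 alternative fits. In 4 of 8 members (Cpt1a, Slc25a20, Crat and Mlycd) the CON-post libraries all exceeded the CON-pre libraries, against 3.29% of all genes. Slc25a20 had 0.30 ± 0.09 (adjusted p = 0.162) and Acacb 0.23 ± 0.06 (adjusted p = 0.101) on the log2 scale.

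On the high fat diet 0 of 8 members were called between HFD-post and HFD-pre by limma, against 0.489% of all genes called higher, and 3 had an unadjusted p under 0.05, as did 11.7% of all genes. Acacb and Mlycd, 2 of 8 members, had every HFD-post library above every HFD-pre library, against 4.72% of all genes. Their log2 fold changes were 0.17 ± 0.06 (adjusted p = 0.274) and 0.23 ± 0.09 (adjusted p = 0.345), and that of Slc25a20 was 0.22 ± 0.09 (adjusted p = 0.349).

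Whether the exercise difference depended on diet was tested by the interaction. In limma 0 of 8 members and 0 of all 11256 genes were called, 1 member and 356 genes having an unadjusted p under 0.05. The member was Mlycd, whose exercise difference was smaller on HFD by a log2 value of -0.30 (95% interval -0.58 to -0.02, limma, adjusted p = 1.00). The unadjusted p of the other 7 ranged from 0.190 to 0.854. Between HFD-post and CON-pre the mean level differed 1.82-fold for Slc25a20, 1.72-fold for Mlycd, 1.49-fold for Cpt1a, 1.44-fold for Cpt2, 1.34-fold for Slc22a5, 1.27-fold for Cpt1b, 1.24-fold for Crat and 1.16-fold for Acacb.

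HFD-post 1 had the highest level of the group for Slc22a5, Cpt1b, Slc25a20, Cpt2 and Crat, and the lowest for Cpt1a and Acacb. It also had the lowest library total of all 16, 283575 FPKM, and the highest sum of the members, 413 FPKM. Its score of slow-fibre markers, the mean of their log2 levels relative to the mean of the 16 libraries, was 0.90, against -0.42, 0.13 and -0.98 in the other libraries of the group. Its adipocyte marker score was -0.21, against 0.33, 0.02 and 0.61. Scores near these also occurred in other groups. Slow-fibre scores were 0.90 in CON-pre 4 and 0.87 in CON-post 1, and adipocyte scores -0.23 in CON-pre 3 and -0.20 in CON-pre 2. The average diet calls of all 5 members were kept in each of 28 alternative fits, including the fit without HFD-post 1. Without it Slc25a20 lost its call between HFD-post and CON-post, which left Cpt2 alone, and 3 members in place of 4 were called with exercise.

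Levels of Cpt1b, Slc25a20, Cpt2 and Crat varied together over the 16 libraries, with Pearson correlations of log2 levels of 0.890 to 0.949 between them. Acacb was less like these 4, at 0.154 to 0.396, and most like Mlycd, at 0.709. Cpt1a was also most like Mlycd, at 0.716. These values describe 16 libraries that share the 4-group structure.

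Over the 9917 genes that averaged 1 FPKM or more, the levels most like those of Slc25a20 were Acadl (0.965), Hadha (0.956) and Ech1 (0.946), enzymes of fatty acid oxidation. Those most like Cpt2 were BC048679 (0.969), Ech1 (0.968) and Vwa8 (0.954), and those most like Crat were Vwa8 (0.963), Hadha (0.961) and Ech1 (0.960). For Cpt1b they were Ephx2 (0.956), Ech1 (0.952) and Cpt2 (0.949). Mlycd was closest to Plin5 (0.949), a coat protein of lipid droplets, the mitochondrial carrier Slc25a34 (0.949) and Acot2 (0.943), a mitochondrial acyl-CoA thioesterase. Acacb was closest to Synj2 (0.912), Aqp1 (0.910) and Eif4a1 (0.907), and Cpt1a to Sptan1 (0.913), Myh9 (0.877) and Tagln (0.869), which encode cytoskeletal proteins. Slc22a5 was closest to Rmdn1 (0.919), Prdx5 (0.914) and Esrra (0.897).

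Genes that take up and activate fatty acids and genes that oxidize the imported acyl-CoA were measured beside the members. For the counts at an unadjusted p under 0.05 given for gene lists here, the share of all genes tested was 10.4% for diet and 18.5% for exercise on average, 8.25% for HFD-pre against CON-pre, 6.29% for HFD-post against CON-post and 11.1% for CON-post against CON-pre. In mitochondrial beta-oxidation, the pathway that uses the imported acyl-CoA, 10 of 15 genes were called higher with HFD on average and 0 lower, against 0.489% of all genes called higher, with a median log2 fold change of 0.41 over the list. Decr1, for unsaturated acyl-CoA, had 0.72 (adjusted p = 1.60e-04) and the long-chain dehydrogenase Acadl 0.68 (adjusted p = 1.85e-05). In fatty acid uptake and activation 5 of 10 were called higher, namely Fabp3 (1.22), Cd36 (0.55), Dbi (0.42), Slc27a1 (0.41) and Acsl1 (0.32), on the log2 scale. Of 12 genes that mark mitochondrial content, such as citrate synthase and respiratory chain subunits, 0 were called with diet or exercise in limma, with 2 and 3 at an unadjusted p under 0.05, and their median was 0.05 with HFD.

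Of 9 further genes that make or use malonyl-CoA or supply its precursor, 4 were called lower with HFD on average and 0 higher, against 0.471% of all genes called lower. Fasn, fatty acid synthase, fell by 1.37 on the log2 scale (adjusted p = 4.36e-04), and the citrate carrier Slc25a1 fell by 0.88 (adjusted p = 0.0190). Acly, which forms cytosolic acetyl-CoA, fell by 0.57 (adjusted p = 0.0320, called in 14 of 28 alternative fits). Acaca, the cytosolic acetyl-CoA carboxylase, fell by 0.52 on average (adjusted p = 0.00135). Its levels were 1.78 ± 0.15 FPKM (SD, n = 4) in CON-pre and 0.939 ± 0.10 in HFD-pre, and its log2 fold change on the log2(FPKM + 0.5) scale was -0.67 before exercise and -0.37 after it (adjusted p = 0.00837 and 0.328). Of the 9 genes 2 were called lower before exercise, against 0.107% of all genes, and 0 after it by limma, with 5 and 3 lower at an unadjusted p under 0.05. Acacb exceeded Acaca in every library, and the ratio was 21.3 ± 2.28 in CON-pre, 41.7 ± 4.51 in HFD-pre, 32.3 ± 5.70 in CON-post and 45.5 ± 3.72 in HFD-post. Of AMPK subunits and LKB1, which act on acetyl-CoA carboxylase by phosphorylation, 0 of 8 were called with diet on average by limma, and 0 had an unadjusted p under 0.05. Before exercise 0 were called and 1 was lower at an unadjusted p under 0.05, Prkaa2 (-0.19, unadjusted p = 0.0177, adjusted p = 0.455). Prkag3, the muscle gamma subunit, fell with exercise by 0.60 on average (adjusted p = 1.73e-04).

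Nuclear receptors, coactivators and known PPAR targets were also measured. Of 10 regulators (PPAR and RXR receptors, coactivators Ppargc1a and Ppargc1b, and the orphan receptors Esrra and Nr4a3) 0 were called with diet by limma. At an unadjusted p under 0.05, 2 were lower with HFD, Ppargc1a (-0.39) and Nr4a3 (-0.40), on the log2 scale. With exercise 2 were called higher, the coactivator Ppargc1a (2.04, adjusted p = 2.63e-07) and the orphan receptor Nr4a3 (3.49, adjusted p = 2.09e-08), on the log2 scale, whereas the PPAR and RXR receptors themselves were not called. Of 7 other known PPAR targets 5 were called higher with exercise, against 2.95% of all genes, namely Acot2 (0.96), Pdk4 (0.91), Plin5 (0.85), Angptl4 (0.70) and Ucp3 (0.58), and 2 with HFD, namely Plin5 (1.21) and Acot2 (0.67). These averages covered unequal values. With exercise 4 of 7 were called on the control diet, against 0.968% of all genes called higher, and 0 on the high fat diet, against 0.489% (3 at an unadjusted p under 0.05 by limma, against 11.7%), Acot2 having log2 fold changes of 1.45 and 0.46 and Pdk4 1.38 and 0.44. With HFD 2 of 7 were called before exercise, against 0.24% of all genes, and 0 after it, against 0.124% (2 at an unadjusted p under 0.05 by limma), Plin5 having 1.52 and 0.89 and Acot2 1.16 and 0.18. In the interaction 0 of 7 were called by limma, and 3 (Acot2, Pdk4 and Ucp3) were below 0 at an unadjusted p under 0.05. Acot2 has near-identical copies, and its value is uncertain. In beta-oxidation 1 of 15 genes, Acadl (0.29), was called with exercise, and in fatty acid uptake 2 of 10, Cd36 (0.35) and Slc27a1 (0.32, called in 9 of 28 alternative fits). Over the alternative fits these counts ranged from 0 to 5 and from 0 to 3. All 15 beta-oxidation genes had a log2 fold change above 0 with exercise, 10 of them at an unadjusted p under 0.05 (18.5% of all genes). Of 4 tested genes for carnitine synthesis and other carnitine carriers, 0 were called with diet by limma (1 at an unadjusted p under 0.05) and Slc22a4, the related transporter OCTN1, rose with exercise by 0.56 (adjusted p = 0.0199).

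**Figure D4:**
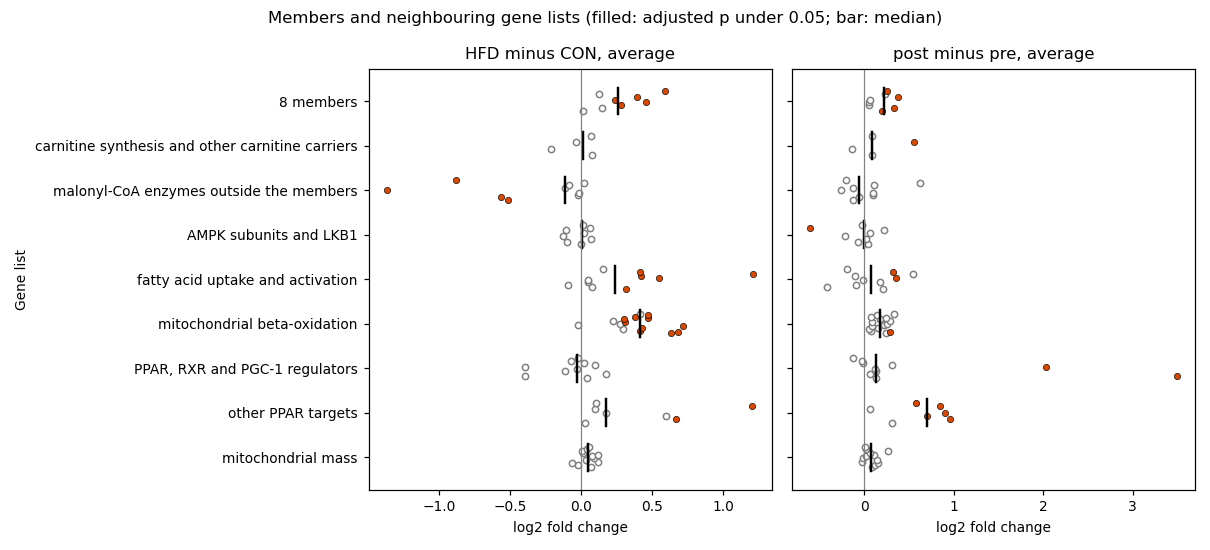
Average log2 fold changes of log2(FPKM + 0.5) for the 8 members and 8 neighbouring gene lists, for HFD minus CON and for post minus pre, with 1 point per gene, filled points where the adjusted p was under 0.05, and a bar at each list's median. With HFD the beta-oxidation genes lie to the right (median 0.41) and 4 malonyl-CoA genes to the left, while the mitochondrial mass genes stay near 0 (median 0.05).

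Cell type markers were measured beside these differences. Of the 10 skeletal muscle markers 0 were called with HFD by limma. At an unadjusted p under 0.05, 4 were lower on the log2 scale, namely Ckm (-0.21), Acta1 (-0.15), Tnnt3 (-0.14) and Myh4 (-0.15). In the same comparison 1 was higher, Mb (0.35), and Myh2 had 0.34 (unadjusted p = 0.0628). Differences among fast fibre types were not tested. Casq1, a calcium-binding protein of the sarcoplasmic reticulum, fell with exercise by 0.32 (adjusted p = 0.00546). Of 16 adipocyte markers 2 were called higher (Lep and Cidea) and 2 lower (Cfd and Adrb3) with HFD, and 3 higher with exercise (Plin4, Pnpla2 and Lpl), where 0.489% and 0.471% of all genes were called higher and lower with HFD and 2.95% higher with exercise. With exercise 11 of the 16 were above 0, and Adipoq (0.25, limma adjusted p = 0.584) and Plin1 (0.17, adjusted p = 0.656) were not called. With a score of the 16 adipocyte markers as a covariate, 5 members remained called with diet, whereas with exercise Mlycd alone was called. The score includes the 3 genes called with exercise, so that fat content and an exercise change of these genes cannot be told apart. The exercise log2 fold changes in that fit were 0.19 for Acacb (adjusted p = 0.0637), 0.29 for Slc25a20 (adjusted p = 0.0520) and 0.28 for Cpt1a (adjusted p = 0.174), against 0.20, 0.26 and 0.34 without the covariate. Of 8 tested slow-fibre markers 0 were called with diet or exercise by limma, and 0 had an unadjusted p under 0.05. Their median log2 fold change with HFD was -0.44, and their summed level ranged from 212 to 727 FPKM in CON-pre, 198 to 526 in HFD-pre, 193 to 720 in CON-post and 194 to 761 in HFD-post. With a slow-fibre score as a covariate, 5 members were called with diet and 4 with exercise. Macrophage and blood markers had 0 calls by limma with diet or exercise, with 1 macrophage marker at an unadjusted p under 0.05 for exercise, and of 8 endothelial markers Pecam1 rose with exercise by 0.36 (adjusted p = 0.00141). With HFD 0 of the 8 endothelial markers were called by limma on average or before exercise, with 2 and 3 higher at an unadjusted p under 0.05, and before exercise all 8 had a log2 fold change above 0 (median 0.19).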

How the data were processed

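Quadriceps mRNA of 16 mice was sequenced by the authors, who aligned reads with TopHat (mm9 named) and estimated expression with Cufflinks. Of 692 loci in their supplementary data, 692 overlapped genes of GRCm38.p6 but 114 those of mm9, so that the named build is uncertain. The authors deposited FPKM, scaled for transcript length and library size. FPKM gives no read counts, so that counting error is unknown and no count model was used. Depth relative to CON-pre 1 was estimated as the most frequent ratio between libraries of the values of genes at 0.5 FPKM or less. The authors' reported depth and the metabolite data were not used here. Of 24487 entries, 27 named as dates were dropped (0.0771% of the summed FPKM), and several entries of 1 symbol were added together (260 symbols). All value columns were used (0 left out).

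The 11256 genes that averaged 0.5 FPKM or more were tested on log2(FPKM + 0.5) with limma 3.58.1 (R 4.3.3) and a mean-variance trend, in 1 fit of 4 group means. Tests were two-sided, and calls were made at 0.05 after Benjamini-Hochberg adjustment over these genes. Fold changes on this scale understate those of low genes. The 7 comparisons were 4 between groups, the averages of diet and exercise, and their interaction. The design states 4 biological replicates a group.

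The 8 members and 14 gene lists were chosen with earlier results of these data known. The values of 2 listed genes are not reported here, and these genes were left out of their list. Named genes are the members, called genes of the lists, and the 3 genes most correlated with each member. Alternatives were 14 settings and 16 fits leaving out 1 library, and the code was tested on simulated data. Same-numbered libraries did not deviate together, so that numbers were not taken as pairs. Positions and promoters are from RefSeq GRCm38.p6. Python 3.11.15 with pandas 2.3.3, numpy 2.4.6 and matplotlib 3.10.9 made the tables and figures.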

Additional observations from a re-analysis of the deposited data

Results flagged for a closer look

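ChkbCpt1b, a read-through entry that joins the neighbouring gene to Cpt1b and was used in no comparison, had a signal in 2 of 16 libraries. It was listed at 0.265 FPKM in HFD-post 1 and at 0.297 FPKM in HFD-post 3. In the other 14 libraries it reached at most 0.000197 FPKM, and the Cpt1b level of HFD-post 1 and HFD-post 3 was 119 and 98.7 FPKM. The part of reads shared with Cpt1b in these values was not tested. No sample of the 8 members stood apart from its group by Dixon's criterion in 32 groups tested, where chance gives about 1 in 20. The ratio of gap to range came nearest to its critical value for the low Slc25a20 level of CON-pre 1 (0.803) and the high Cpt1b level of HFD-post 1 (0.793).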

How the results depend on the processing

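The 5 members called with diet on average were 5 in every alternative, and the counts of 0 for HFD-post against HFD-pre and for the interaction were also kept, leave-one-out fits included (5 to 5, 0 to 0 and 0 to 0). The 4 members called in HFD-pre against CON-pre became 2 with upper-quartile scaling, no mean-variance trend, the replicate block or an adipocyte marker score as a covariate, 3 with median-of-ratios scaling or quantile normalization (Crat being lost), 1 when only the 2 groups were fitted, and 1 to 4 when 1 library was left out. Crat kept its call only without HFD-post 1 or HFD-post 3, and Cpt2 only without CON-pre 3, CON-post 1, CON-post 2, CON-post 4, HFD-post 1 or HFD-post 3. Mlycd lost its call without CON-pre 1, CON-pre 2, HFD-pre 3 or HFD-pre 4 (adjusted p of 0.0557 to 0.0662). The 2 called in HFD-post against CON-post became 1 with median-of-ratios scaling, 0 with the 2 groups alone, and 0 to 2 when 1 library was left out. Without CON-post 2 both were lost, and Slc25a20 was also lost without CON-post 1, CON-post 3, HFD-post 1 or HFD-post 4. The 1 called in CON-post against CON-pre became 2 with median-of-ratios scaling, quantile normalization or array weights, 0 with the 2 groups alone, and 1 to 2 when 1 library was left out, Acacb being added without CON-pre 4 and Cpt1a without CON-post 1. The 4 called with exercise became 2 with no filter, upper-quartile scaling, quantile normalization or the replicate block, 1 with the adipocyte score, 3 with median-of-ratios scaling (Slc25a20 being lost) or no mean-variance trend (Cpt1a being lost), and 2 to 3 when any 1 library was left out. Cpt1a kept its call only without CON-post 1 or HFD-post 1, and Slc25a20 only without CON-pre 2, CON-pre 3, CON-pre 4, HFD-pre 1, HFD-pre 4, CON-post 2 or HFD-post 2. The cause was not tested.

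The average exercise values of Cpt1b and Crat turned to -0.00664 and -0.00417 under quantile normalization, and the diet value of Acacb ranged from -0.00516 to 0.0351 when 1 library was left out. These 3 genes were not called in those comparisons. No called member or list gene changed direction.

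As a check of pairing, deviations of same-numbered libraries correlated at -0.236 to 0.238 over 24 pairs, 5 of them over 0.1, and 3 of 16 libraries correlated best with their own number. With the replicate block 2 members were called before exercise, 2 with exercise and 5 with diet.

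FPKM gives no depth per gene, so that how far counting error limits the low members Cpt1a and Slc22a5 is not known.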
